A study of Mus musculus with 2 samples.

Results

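The 5 uroplakin genes Upk1a, Upk1b, Upk2, Upk3a and Upk3b were followed on 2 dual-colour oligonucleotide arrays of mouse ureters at E16.5. They were found as all probes that carry 1 of these gene names, and each gene had 1 probe, so 5 of 29982 genes with values are described. The study asked which transcripts depend on Pparg, which encodes a nuclear receptor, in the epithelium of the ureter. On each array, RNA from a pool of ureters of Pparg-cKO embryos (genotype Pax2-cre/+; Pparg(fl/fl)) was hybridised with RNA from a pool of control ureters (genotype Pparg(fl/?), littermates without cre), both on the NMRI background. Array 1 carried female and array 2 male pools, and the dyes were exchanged between the arrays, so dye and sex changed together and cannot be told apart. The cre line recombines in the nephric duct, the ureteric epithelium and the collecting ducts and removes exons 2 and 3 of Pparg. The whole ureter was used, so epithelium, smooth muscle and connective tissue were all in the RNA, and fewer cells of a type and less RNA per cell cannot be told apart.

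Uroplakins are membrane proteins of the urothelium, the epithelium that lines the urinary tract. The tetraspanins UPK1A and UPK1B each pair with a partner that spans the membrane once, UPK1A with UPK2 and UPK1B with UPK3A or UPK3B, and UPK1A, UPK2 and UPK3A need their partner to leave the endoplasmic reticulum. The pairs assemble into crystalline plaques that cover the luminal face of superficial cells and form a barrier to urine, and uroplakin expression is therefore widely used as a sign of terminal urothelial differentiation. UPK3B is in addition known from mesothelium.

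The genotypes of the RNAs are not settled by the labels, and ratios are therefore given between an RNA A and an RNA B. RNA A carried AlexaFluor647 on array 1 and AlexaFluor555 on array 2, and RNA B carried the other dye. By the dye labels RNA A is the control RNA, whereas the direction in which the study describes its fold changes makes RNA A the Pparg-cKO RNA. All log2 ratios are RNA A over RNA B, so a negative value means a brighter signal in RNA B. If the labels hold, the direction given here is the opposite of the study's, and no genotype was inferred from values. By RNA in situ hybridization, a separate measure, the paper reported Upk1a and the keratin gene Krt20 strongly reduced or absent in fetal Pparg-cKO ureters, and Upk3b reduced. By immunofluorescence, which measures protein, it reported UPK1B and UPK2 in luminal cells of fetal controls but not of fetal Pparg-cKO ureters. With RNA A as Pparg-cKO, the ratios of Upk1a, Upk1b, Upk2, Upk3b and Krt20 run the same way. The authors' deposited fold changes ran in the direction of RNA A over RNA B on both arrays, with a Pearson correlation of 0.997 across 18540 probes on array 1 and on array 2, where probes are not independent replicates.

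The probes are shown because each gene rests on a single one. The following are the last 30 bases of each 60-base probe from 5′ to 3′ in the sense of the transcript, with a polyadenylation hexamer (AATAAA) in capitals where it was found.
Upk1a: gttggctggacacccAATAAAtactggctg
Upk1b: gacgactctcattcctgtctatgtttaatg
Upk2: ctcttaactgtacttaattctcacAATAAA
Upk3a: aaatgacacacgactcacagatcacccagg
Upk3b: tggctattaatgacagtcggctacctagcc
The files place the probes, in build mm9, at chr7:31388111-31388170 on the minus strand for Upk1a, chr16:38773859-38773918 on the minus strand for Upk1b, chr9:44260822-44260881 on the minus strand for Upk2, chr15:84851819-84852720 on the plus strand for Upk3a and chr5:136520522-136520581 on the plus strand for Upk3b. The probes of Upk1a and Upk2 held the hexamer, which lies near the end of many transcripts. The Upk3a probe covered 902 genomic bases with 60 bases, so that it joins separate stretches of the genome. GC content ranged from 36.7% in the probes of Upk1b and Upk2 to 53.3% in that of Upk3a. No other probe of the array shared 20 bases in a row with a probe of the 5 genes on either strand. Probe positions were not set against gene models, so exon and UTR assignments are not given.

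With the processed signals, all 5 uroplakins were brighter in RNA B than in RNA A on both arrays, by 1.48-fold (Upk2) to 3.23-fold (Upk3b) as geometric mean of the arrays. The tetraspanin Upk1a and the UPK3A-related partner Upk3b gave the largest ratios, and Upk1b, Upk2 and Upk3a lay close together well above them on the log2 ratio scale. Only Upk1a and Upk3b passed the limma test with Benjamini-Hochberg adjustment across 21429 genes, and both calls were lost under several other settings. Upk3a lost its direction on array 1 when signals before dye normalisation were used.

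**Figure D1:**
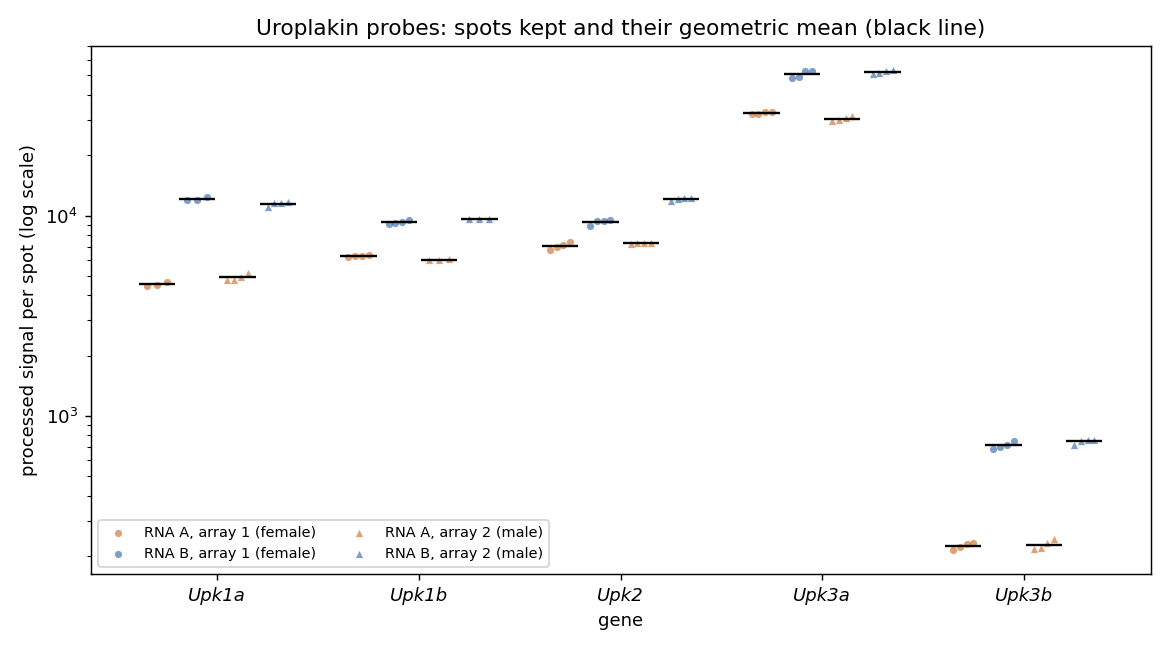
Processed signal (log scale) of each kept spot of the 5 uroplakin probes, in RNA A and RNA B on array 1 (female, circles) and array 2 (male, triangles), with the geometric mean over spots as a black line. For every gene, all spots of RNA B lie above all spots of RNA A on both arrays.

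Upk1a encodes the tetraspanin partner of UPK2. On array 1 its processed signal, a background-subtracted and dye-normalised brightness, was 4545 for RNA A against 12126 for RNA B. Array 2 gave 4915 for RNA A against 11472 for RNA B. Both pools of RNA A were thus below both pools of RNA B. Log2 ratios of -1.42 (array 1) and -1.22 (array 2) averaged -1.32 ± 0.14 (SD, n = 2 arrays), which is 2.50-fold brighter in RNA B. The limma estimate had an SE of 0.20 and an adjusted p of 0.0451. The adjusted p was 0.0711 after a second loess step, 0.177 after normexp background correction and loess, and 0.193 with signals before dye normalisation. Upk1a ranked 50th from the lowest mean ratio among the 21429 genes.

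Upk1b encodes the tetraspanin partner of UPK3A and UPK3B. Its signal on array 1 was 6296 for RNA A against 9250 for RNA B. The corresponding signals on array 2 were 6025 and 9595. The RNA A pools differed from each other by less than the distance to either RNA B pool. Its log2 ratios of -0.55 and -0.67 gave a mean of -0.61 ± 0.082 (SD, n = 2 arrays), or 1.53-fold, with a limma SE of 0.20 and an adjusted p of 0.725. On array 1 the fold was 1.47, just under the 1.5-fold minimum that the study used for each array.

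Upk2 encodes the small single-span partner of UPK1A. The signal in RNA A was 7055 on array 1 and 7256 on array 2. In RNA B it was 9281 on array 1 and 12090 on array 2. The RNA A pools were nearly alike, and the arrays differed in RNA B. Log2 ratios of -0.40 (array 1) and -0.74 (array 2) averaged -0.57 ± 0.24 (SD, n = 2 arrays), the widest spread among the 5 genes. The adjusted p was 0.971 with a limma SE of 0.20. The fold was 1.32 on array 1 and 1.67 on array 2.

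Upk3a encodes the single-span partner of UPK1B with a longer cytoplasmic tail. RNA A gave 32480 on array 1 and 30472 on array 2. RNA B gave 50577 and 51987. None of its spots was saturated. Its log2 ratios of -0.64 and -0.77 averaged -0.70 ± 0.093 (SD, n = 2 arrays), a 1.63-fold difference with a limma SE of 0.20 and an adjusted p of 0.513. With background-subtracted signals before dye normalisation, the Upk3a ratio was 0.18 on array 1 and -1.32 on array 2, so the direction on array 1 turned while the mean stayed at -0.57.

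Upk3b encodes the relative of UPK3A that also pairs with UPK1B. Its array 1 signal was 225 for RNA A against 713 for RNA B. The array 2 signals were 228 against 747. All 8 of its spots were kept and were well above background in both dyes. The log2 ratios of -1.67 and -1.71 were almost equal between the arrays and averaged -1.69 ± 0.033 (SD, n = 2 arrays), a 3.23-fold difference. With limma the SE was 0.20 and the adjusted p 0.0201. The adjusted p was 0.0612 with signals before dye normalisation and 0.118 after normexp and loess. Upk3b ranked 18th from the lowest mean ratio among the 21429 genes.

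As a count, 3 of the 5 uroplakins (Upk1a, Upk3a and Upk3b) passed the study's filter as read here, which asks for 1.5-fold or more in the same direction on each array and for 100 or more units of signal in the brighter RNA. The same filter was passed by 69 of 29982 genes, or 0.23%, in that direction. Not all of these genes were bright enough to pass, and 12644 tested genes with a symbol, uroplakins left out, reached that signal on each array. By limma 2 of 5 uroplakins were called brighter in RNA B, against 0.187% of the 21429 genes tested. At an unadjusted limma p under 0.05 all 5 were counted, against 2.1% of genes. A share of 17.4% of genes tested was brighter in RNA B on both arrays, as were all 5 uroplakins. An exact two-sided permutation of the signs of 2 ratios gives no p below 0.5, and the limma values rest on 1 residual degree of freedom together with a variance shared across genes. Median log2 ratios over all genes tested were -0.00038 on array 1 and 0.025 on array 2.

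**Figure D2:**
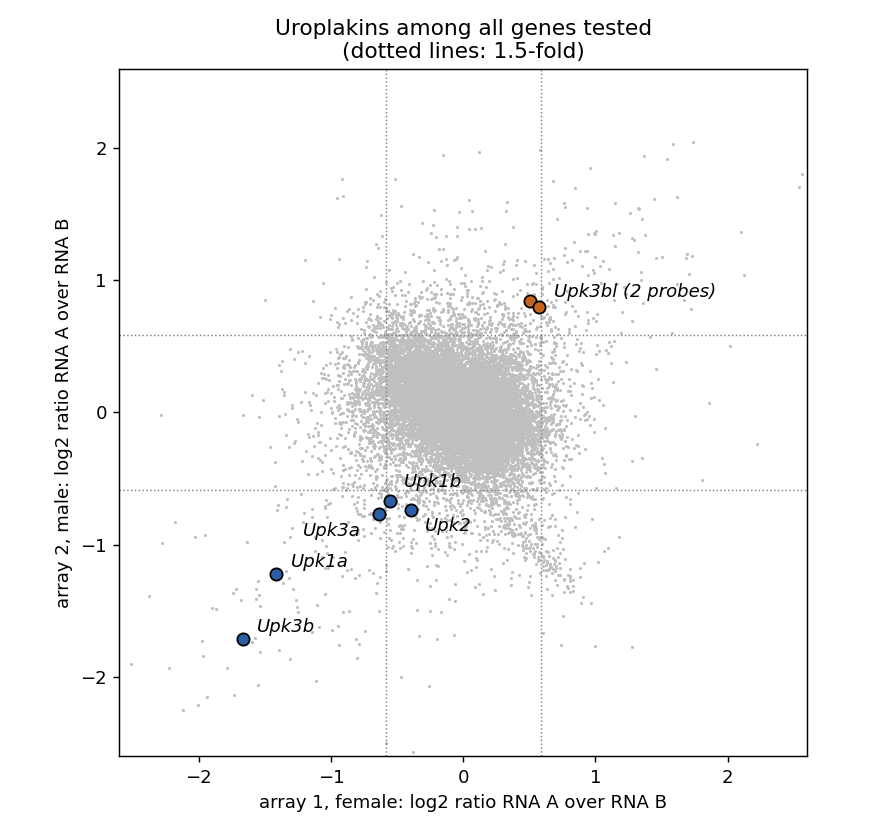
Log2 ratio of RNA A over RNA B on array 1 (female, x axis) against array 2 (male, y axis) for the genes tested by limma (grey), the 5 uroplakins (blue) and both probes of Upk3bl (orange), with dotted lines at 1.5-fold; 11 genes lie outside the plotted range of 2.6 in either direction. The uroplakins sit in the lower left quadrant, Upk1b and Upk2 each short of 1.5-fold on array 1, and Upk3bl sits in the upper right.

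The spots of each probe repeat the measurement within an array and show its technical spread. Each probe had 4 spots per array, of which 3 were kept for Upk1a on array 1 and for Upk1b on array 2, and 4 otherwise. The SD of the log2 ratio over spots ranged from 0.0049 (Upk1a, array 1) to 0.066 (Upk3b, array 2). For Upk2 on array 1, RNA A spots ranged from 6763 to 7343, and RNA B spots from 8886 to 9478. On array 2 the RNA A spots ranged from 7180 to 7285, and the RNA B spots from 11820 to 12265. The spot ratios of Upk2 ran from -0.43 to -0.37 on array 1 and from -0.75 to -0.72 on array 2, so that its difference between the arrays was larger than the spread over spots. For Upk3b the spot ratios ran from -1.70 to -1.62 and from -1.79 to -1.63, and those ranges overlapped. All spots of RNA B lay above all spots of RNA A on both arrays for the 5 uroplakins, which held for 5.51% of genes tested.

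The size of the difference was not the same for all uroplakins, nor within the pairs that the proteins form. The Upk1a ratio was lower than that of its partner Upk2 by 1.02 on array 1 and by 0.49 on array 2 on the log2 scale. The Upk1b ratio lay above that of Upk3b by 1.11 and 1.04. Upk1b and Upk3a, which also pair, differed by 0.084 and 0.099, with Upk3a the lower, but on array 1 this order turned after normexp and loess (-0.024) and before dye normalisation (-0.46). The order from the lowest ratio was Upk3b, Upk1a, Upk3a, Upk1b and Upk2 on array 1 and Upk3b, Upk1a, Upk3a, Upk2 and Upk1b on array 2. Upk3b lay below Upk1a by 0.25 on array 1 and 0.49 on array 2, and Upk1a lay below Upk3a by 0.78 and 0.45. Upk1b and Upk2 changed places, with a mean difference of -0.047 ± 0.16 (SD, n = 2 arrays), and did not differ beyond their spread. Across 9 scalings the ratio of Upk3b was below that of Upk1b, Upk2, Upk3a and Upk1a on both arrays each time. The order of Upk1a and Upk3a turned on array 2, and that of Upk2 and Upk3a on array 1, in 1 scaling, signals before dye normalisation. Centring takes the same value from every gene of an array, so the order under it was fixed in advance. Taking the median over spots, or keeping flagged spots, reused the same processed signals. The differences between the uroplakins were not tested, as 2 arrays gave 2 values each.

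**Figure D3:**
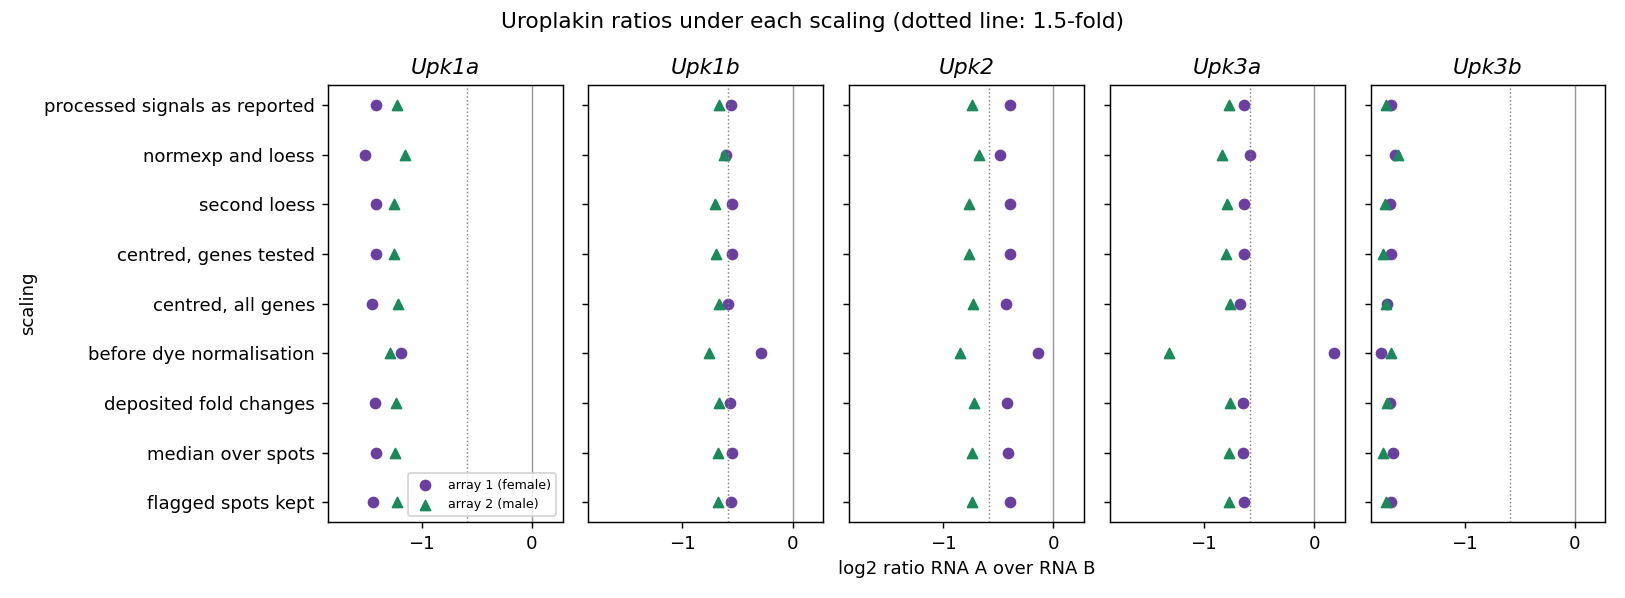
Log2 ratio of RNA A over RNA B of each uroplakin on array 1 (female, circles) and array 2 (male, triangles) under 9 scalings, with a dotted line at 1.5-fold and a grey line at 0. Of 90 values 89 lie below 0, the exception being Upk3a on array 1 with signals before dye normalisation, at 0.18.

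Female and male pools were on different arrays, so their levels can only be described. In RNA A, the log2 signal on the female array less that on the male array ranged from -0.11 (Upk1a) to 0.092 (Upk3a), against a median of -0.073 over genes tested. In RNA B it was -0.38 for Upk2 and lay between -0.066 and 0.080 for the others, against a median of -0.064 and a 5th percentile of -0.47. As the mean of both RNAs, Upk2 was at -0.21 and the other 4 genes lay between -0.043 and 0.026. The lower Upk2 level on the female array was thus seen in RNA B.

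Upk3bl, a gene next to Upk3b on chromosome 5 with no gene between them in the RefSeq listing of GRCm38.p6, encodes a uroplakin-3b-like protein. Its 2 probes overlap in sequence and count as a single measurement. The first probe gave 4665 for RNA A against 3281 for RNA B on array 1, and 5411 against 3026 on array 2. In contrast to Upk3b, both Upk3bl probes were brighter in RNA A. Log2 ratios of the first probe were 0.51 and 0.84 (mean 0.67, limma adjusted p 0.627), and that of the second was 0.58 and 0.79. The mean Upk3bl ratio stayed between 0.66 and 0.74 under each of the scalings. The difference between Upk3b and Upk3bl was not tested.

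The RefSeq promoters (build GRCm38.p6, from 250 bases before to 50 bases after the start) were matched for 3 of the 5 uroplakins, Upk1a, Upk3a and Upk3b. They were searched on both strands for the nuclear receptor half-site AGGTCA, which 16.3% of 32851 promoters hold, for its direct repeat AGGTCANAGGTCA, the form bound by PPAR with RXR, which 0.0396% hold and which contains the half-site, for the GRHL motif AACCNGTT, which 2.09% hold, and for TATAAA, which 13.6% hold. In the Upk3b promoter, at chr5:136038246-136038545 on the plus strand, a half-site starts 155 bases before the start of the gene, shown in capitals within 30 bases because Upk3b had the lowest ratio.
Upk3b promoter: tggggctggactAGGTCAgggccagcctac
The promoters of Upk1a and Upk3a held none of the motifs in this window. The Upk3bl promoter, at chr5:136057017-136057316 on the plus strand, held a GRHL motif 9 bases before the start, printed for comparison with its neighbour.
Upk3bl promoter: tgaacctgtccAACCAGTTttaggggagga
A match of letters is a description of these windows and not a binding site.

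Genes that act around the plaque were read from lists chosen for this tissue, by count and median. The list of plaque transport held 8 genes, which move uroplakins to the luminal membrane or back. Of these, 6 were brighter in RNA B on each array, against 17.4% of genes tested, and 2 had opposite signs. The median of the mean log2 ratios was -0.31 beside 0.0067 over all genes tested. Mal, an apical sorting protein, had the lowest ratio of the list, with signals for RNA A against RNA B of 8490 against 14304 on array 1 and 7318 against 13981 on array 2. Its log2 ratios averaged -0.84 ± 0.13 (SD, n = 2 arrays), with an adjusted p of 0.289 from limma, and it was the only gene of the list past the 1.5-fold filter. Rab8a, a GTPase of apical transport, had the highest ratio of the list at 0.037, with -0.031 on array 1 and 0.11 on array 2.

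Of 5 keratins of the urothelium, 4 were brighter in RNA B on each array, against 17.4% of genes tested, and the median was -0.39. Krt20, a keratin of superficial cells, gave 138 for RNA A against 535 for RNA B on array 1 and 276 against 524 on array 2. Its log2 ratios averaged -1.44 ± 0.73 (SD, n = 2 arrays), past the filter and with a limma adjusted p of 0.0985. Krt19 was at -0.29 on array 1 and 0.29 on array 2. Among 6 regulators of urothelial differentiation, 5 had opposite signs on the arrays, as 61% of all genes tested did, with a list median of -0.76 on array 1 and 0.18 on array 2. Elf3, an epithelial ETS factor, was the exception, at -0.71 and -0.21. No gene of the plaque transport, keratin and regulator lists passed the limma test.

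Markers of the cell types in the ureter were read in the same way. All 6 markers of epithelial cells in general, among them the adhesion genes Cdh1 and Epcam, were well above background in both RNAs, and all 6 had opposite signs on the arrays, with medians of -0.21 on array 1 and 0.050 on array 2. Opposite signs were common on these arrays, at 61% of genes tested. Their summed signal was 15069 for RNA A against 16067 for RNA B on array 1 and 15211 against 17064 on array 2. The 5 uroplakins summed to 50601 against 81946 on array 1 and to 48895 against 85891 on array 2. Most of these sums came from Upk3a, at 32480 against 50577 on array 1 and 30472 against 51987 on array 2. Of 4 basal cell markers, 3 keratins were brighter in RNA A on each array, against 21.6% of all genes tested, with a list median of 0.44 and a highest value of 0.47 for Krt5. Trp63, the basal transcription factor, was at -0.31 and 0.098. The smooth muscle list moved in the same direction as the uroplakins, with 5 of 6 genes brighter in RNA B on both arrays and a median of -0.63. Its lowest ratio was that of Myh11, smooth muscle myosin, at -0.42 and -1.18, and its summed signal was 77351 for RNA A against 98500 for RNA B on array 1 and 73649 against 128874 on array 2. The part of smooth muscle and of basal cells in the uroplakin ratios was not tested.

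Because UPK3B is also known from mesothelium, mesothelial markers are given beside it. Msln and Wt1 were tested and were brighter in RNA B on array 1, at -0.64 and -0.51, and in RNA A on array 2, at 0.10 and 0.084, unlike Upk3b. Lrrn4 and Bnc1 were too dim on at least 1 array to be tested, with signals of 3.41 to 55.7, and Muc16 had no value here. The summed signal of the 4 mesothelial markers with values was 2709 for RNA A against 4045 for RNA B on array 1 and 3030 against 2844 on array 2. Of the collecting duct list, where the cre line is also active, Fxyd4 was brighter in RNA A, averaging 1.16 ± 0.56 (SD, n = 2 arrays) as log2 ratio with an adjusted p of 0.154 from limma, while Aqp2 gave signals of only 51.8 to 89.9. The nephron markers Umod and Slc12a1 were not well above background in any channel, Slc34a1 did not exceed a signal of 37.2 and was well above background in RNA A on 1 array only, and the 4 endothelial genes had opposite signs on the arrays with a median of 0.080.

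**Figure D4:**
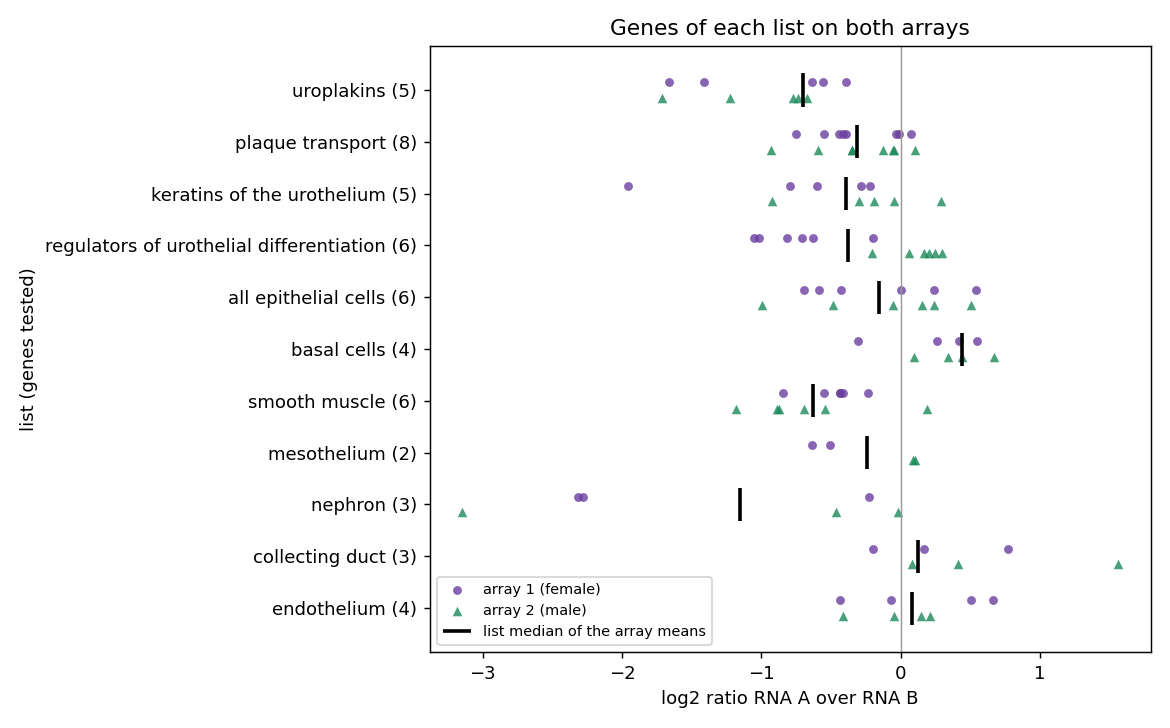
Log2 ratio of RNA A over RNA B on array 1 (female, circles) and array 2 (male, triangles) for the tested genes of each list, with the list median of the array means as a black bar. The uroplakins lie to the left of 0 on both arrays with a median of -0.70, while the regulators and the general epithelial markers spread to both sides.

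The genes with the most similar pair of ratios were found by Euclidean distance over the 2 arrays among 12644 tested genes whose brighter RNA reached a signal of 100 on each array. Nearest to Upk1a were Hsd17b14 (distance 0.077) and Cck (0.21). Hhip (0.036) and Myocd (0.044) were nearest to Upk1b. For Upk2 they were Sh3gl2 (0.016) and Ccdc69 (0.054), and for Upk3a Gm3893 (0.018) and Rnf144b (0.056). Upk3b was nearest to Mfsd4a (0.075) and Degs2 (0.17). The short distances of Upk1b, Upk2 and Upk3a lie where genes are dense, and 2 values per gene leave much room for likeness without a relation.

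The targeted gene and the sex of the pools were read as checks. Pparg was brighter in RNA A, with signals for RNA A against RNA B of 11295 against 7430 on array 1 and 12888 against 7872 on array 2. Its log2 ratios averaged 0.66 ± 0.076 (SD, n = 2 arrays), with an adjusted p of 0.615 from limma. Whether its probe lies in the deleted exons was not determined, so it does not check the labels. Xist gave 1980 and 1651 on array 1 and no more than 3.06 on array 2, and the Y-linked Ddx3y gave no more than 16.7 on array 1 and 4794 and 4396 on array 2, as the labels of sex state.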

How the data were processed

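Feature Extraction 10.7.3.1, per the labels, made the deposited intensities of each spot. The authors' processed intensity was background-subtracted and dye-normalised by a linear and a LOWESS correction. The deposited log10 ratios served as a check and equalled the ratio of processed signals within 0.001 for all 40 spots of the uroplakins. The authors' deposited signed fold changes, treated as a score, was used as an alternative. Titles and protocols state E16.5 and were followed, while the second channel's stage label states E14.5.

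Control spots and flagged spots were left out, log2 signals were averaged over spots, and a gene was represented by its brightest probe. Ratios were fitted with limma 3.58.1 (intercept, eBayes, R 4.3.3) over genes whose probe was well above background in the same RNA on both arrays, meaning in at least 0.5 of its kept spots. The fit was tested on simulated data. The pools are the only replicates, and their number limits the precision. Positions are those of the files (mm9), and probe names were updated through RefSeq for 28328 of 39429 probes. Named genes are the uroplakins, Upk3bl, Pparg, the extremes of each list and its genes past the filter, the 2 nearest genes of each uroplakin and sex genes. Other list members are named where a count, a check or opposite signs on the arrays need them. Members and lists were chosen with earlier results of these data known. Alternatives covered background correction, scaling, spots, filters, the fit and each array. Files were read with the R package data.table, version 1.17.8, and plots drawn with matplotlib 3.10.9.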

Additional observations from a re-analysis of the deposited data

Results flagged for a closer look

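The genes tested in the lists that had opposite signs in the female pools of array 1 and the male pools of array 2 numbered 23, and 61% of all genes tested had opposite signs. The difference was not tested, and dye and sex cannot be told apart in it. Values are log2 ratios of RNA A over RNA B on array 1 and then array 2. Among general epithelial markers they were -0.59 and 0.15 for Cdh1, 0.0046 and -0.49 for Cldn4, -0.43 and 0.24 for Cldn7, 0.24 and -0.055 for Epcam, 0.54 and -0.997 for Esrp1, and -0.69 and 0.51 for Grhl2. Among regulators they were -0.63 and 0.20 for Foxa1, -1.05 and 0.29 for Gata3, -0.82 and 0.058 for Grhl3, -1.02 and 0.24 for Klf5, and -0.20 and 0.17 for Rxra. For the endothelial genes they were -0.44 and 0.21 (Cdh5), -0.073 and 0.14 (Kdr), 0.66 and -0.42 (Pecam1), and 0.50 and -0.050 (Tek). In the other lists they were -0.44 and 0.19 for Des, -0.20 and 0.41 for Hsd11b2, -0.29 and 0.29 for Krt19, -0.64 and 0.10 for Msln, 0.074 and -0.13 for Rab11a, -0.031 and 0.11 for Rab8a, -0.31 and 0.098 for Trp63, and -0.51 and 0.084 for Wt1. No uroplakin had opposite signs on the arrays with the processed signals.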

How the results depend on the processing

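All 17 values per gene stayed below 0 for the 5 uroplakins. Each is a mean of both arrays, except those of each array alone with the processed signals. They ranged from -1.42 to -1.22 for Upk1a, -0.67 to -0.52 for Upk1b and -0.74 to -0.40 for Upk2. For Upk3a they ran from -0.77 to -0.57, and for Upk3b from -1.71 to -1.62. The single arrays gave both ends of the range for Upk1a and Upk2. Fits that changed only the test or the set of genes tested returned the main estimate, so their sign was fixed in advance. The limma call held in 7 of 15 fits for Upk1a (adjusted p 0.0175 to 1.00) and in 8 of 15 for Upk3b (0.00736 to 1.00), and no fit called the other 3. The calls for Upk1a and Upk3b were lost, with calls across all genes given for RNA A and then RNA B, under normexp and loess (-1.33 and -1.62; 1 and 0 genes, against 27 and 40), before dye normalisation (-1.23 and -1.71; 1 and 7), with the deposited fold changes (-1.33 and -1.69; 0 and 0) and without the filter on dim probes (-1.32 and -1.69; 0 and 0). A second loess step ended the call of Upk1a only (-1.33; 8 and 20). Leaving out the replicate block, that is the pairing within an array, ended both (-1.32 with adjusted p 0.125 and -1.69 with 0.0840; 1 and 0), as did a fit on RNA and dye (-1.32 and -1.69; 1 and 0). A looser filter, chosen after seeing the data, which asked for a probe well above background in any dye on each array, ended both too (-1.32 and -1.69; 1 and 0). Centring on all genes with values, also chosen then, kept both calls. It let 4 uroplakins pass the 1.5-fold filter, among 77 of 29982 genes that passed it brighter in RNA B.

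Where limma called 0 genes in RNA B, an unadjusted p under 0.05 was reached by 325 genes after normexp and loess, 305 with the deposited values, 274 without the dim filter, 418 with the looser filter, 363 without the block and 382 with the dye term. Where it called 0 in RNA A, the counts were 262 with the deposited values and 220 without the dim filter. The median over spots gave 16 calls in RNA A. At 2-fold the filter passed 19 genes in the direction of RNA A and 29 in that of RNA B, at a signal of 200 it passed 28 in RNA A, and with no signal threshold 193 and 239. Without replicate 1 or replicate 2 the filter passed 301 to 321 genes brighter in RNA A, 488 to 637 brighter in RNA B and 3 to 5 uroplakins, all 5 being past it on array 2 alone, and a single array has no test. Signals before dye normalisation left 2 uroplakins past it, among 77 genes that passed it brighter in RNA B. The cause of these changes was not tested.

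The precision was limited by 2 arrays. All uroplakin probes were well above background, and no spot was saturated.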
